A study of Homo sapiens with 6 samples.

Results

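MCL1 and 9 other genes of the BCL2 family were followed in the transcriptome of OVCAR3 cells treated with THZ531. The 10 members were taken by gene symbol from the 47577 loci of the deposited expression table: the anti-apoptotic genes MCL1, BCL2 and BCL2L1 (BCL-XL), the effectors BAX and BAK1 (BAK), and the BH3-only genes BCL2L11 (BIM), BID, PMAIP1 (NOXA), BIK and BAD. Each matched 1 locus, and none of these loci is joined with another symbol. OVCAR3 is an established line of high-grade serous ovarian cancer (HGSOC), so a single tumor background was measured. RNA-seq was performed on polyA-selected RNA from 3 cultures that received DMSO, the solvent of the drug, and 3 cultures that received 200 nM THZ531, both for 6 h. THZ531 is a covalent inhibitor of the transcriptional kinases CDK12 and CDK13, and 1 dose and 1 time point were tested. The sample titles name THZ531, whereas the treatment field gives THZ1, a related compound, at an equal dose, and the groups used here follow the titles.

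Proteins of the BCL2 family decide whether the outer membrane of the mitochondrion stays intact. MCL1, BCL2 and BCL-XL hold the effectors BAX and BAK in check. BH3-only proteins bind the anti-apoptotic members or activate the effectors, which then form pores that release cytochrome c and set off the caspases. MCL1 protein and mRNA are both short-lived, and for this reason MCL1 is often followed in cells treated with inhibitors of transcriptional kinases.

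Members of the family share the BH3 motif, the short helix through which they bind each other. The coding DNA of this motif is shown for the genes that the results below turn on, so that the members can be compared base by base. Each stretch of 36 bases was read from the MANE Select transcript of GENCODE v44, 5′ to 3′ on the coding strand. Capitals mark the 18 bases that encode the core, from its conserved leucine to its conserved aspartate.
BCL2L11: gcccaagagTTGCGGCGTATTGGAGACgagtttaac
BIK: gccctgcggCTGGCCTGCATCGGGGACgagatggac
MCL1: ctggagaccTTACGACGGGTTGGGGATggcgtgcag
BCL2L1: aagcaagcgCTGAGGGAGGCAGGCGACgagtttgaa
BAX: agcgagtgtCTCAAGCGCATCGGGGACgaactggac

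On hg38, the stretch of BCL2L11 lies in exon 3 of its transcript, at chr2:111150094-111150129 on the plus strand, and that of BIK in exon 3, at chr22:43127707-43127742 on the plus strand. The stretch of MCL1 is in exon 1, at chr1:150578868-150578903 on the minus strand, and that of BCL2L1 in exon 2, at chr20:31721925-31721960 on the minus strand. The BAX stretch is in exon 3, at chr19:48955778-48955813 on the plus strand. Over the 18 core bases, the other 9 members matched BCL2L11 at 8 to 12 positions. MCL1 and PMAIP1 had the most matches, 12 each. In all 10 members the stretch lies within a single exon, and in 9 of the 10 a glycine codon precedes the aspartate codon. BAD is the exception. Reads were counted on whole genes, so isoforms that lack or keep an exon cannot be told apart in these values. Full-length transcripts likewise cannot be told from those that retain an intron or end early, events the paper reports after THZ531.

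The table holds read counts after division by each library's size factor, called normalized reads here. The 6 libraries rest on 53054048 to 70986130 counted reads each. The 10 markers of serous ovarian carcinoma had a summed level of 508252 to 522458 normalized reads in DMSO and 637615 to 653066 in THZ531. Most of this sum came from the epithelial keratins KRT7, KRT8, KRT18 and KRT19, whereas WT1 had a mean of 650 in DMSO. PAX8 was the 1 marker of the 10 called lower (10645, 11535 and 11636 normalized reads in DMSO against 1184, 1161 and 1380 in THZ531). Markers of leukocytes were low (3 genes, summed 407 to 496 in DMSO and 404 to 490 in THZ531, with CD3E at 0 in every library), as were those of endothelium (3 genes, 162 to 199 and 213 to 299). The 4 fibroblast markers summed to 1629 to 1871 in DMSO and 3142 to 3446 in THZ531, nearly all of it from COL1A1 and COL3A1, and DCN did not exceed 3.19. The part of these levels in the results was not tested. CDK12, a target of the drug, was measured at 6819, 6641 and 6825 normalized reads in DMSO and 8486, 8817 and 9200 in THZ531 (log2 fold change 0.39), and CDK13 at 3989, 3747 and 4020 against 3816, 3906 and 3866 (log2 fold change -0.02). The drug acts on the kinases and not on their transcripts, so these levels do not check the treatment.

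Expression was compared with limma on the log2(normalized reads + 1) scale, on which the change of weakly expressed genes is understated. A gene counted as regulated when it changed 1.5-fold or more with an unadjusted p no higher than 0.05, and Benjamini-Hochberg adjusted p-values were computed over the 17568 loci with at least 10 normalized reads in at least 3 libraries. All 10 members passed this minimum. Relative to the other RNA of a library, BCL2L11 and BIK, both BH3-only genes, rose after 6 h of THZ531, and no member was called lower. Among all loci tested, 15.7% increased and 23.9% decreased, so the 2 increases among 10 genes lie near the background and are not a result about the family as a whole. The 0 decreases were not tested as a list. The median log2 fold change of the members was 0.01, and that of all loci tested was -0.01. At an adjusted p of at most 0.05 and any fold, 5 of the 10 members differed between the treatments with the deposited scaling (MCL1, BAX, BAK1, BCL2L11 and BIK), beside 68.6% of all loci tested. With the same total or RPL34 as the scaling, all members but BCL2 were within this limit. The share of all loci was not counted there. MCL1 missed this limit when limma was run without a trend in the variance (limma adjusted p = 0.06).

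**Figure D1:**
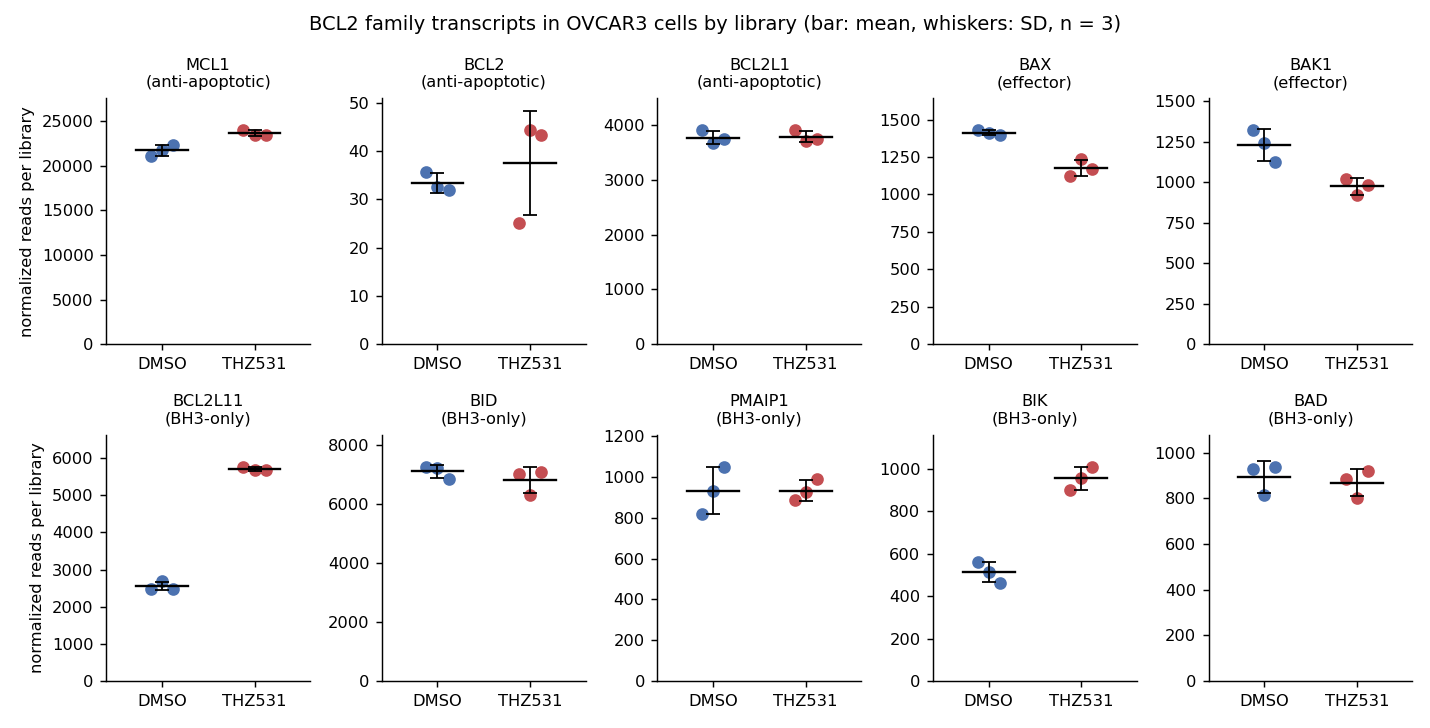
Normalized reads (vertical axis, from 0) of the 10 members in each DMSO and THZ531 library (points), with the mean (bar) and SD (whiskers) of 3 libraries. The THZ531 libraries of BCL2L11 and BIK sit above all of their DMSO libraries, as do those of MCL1 by a small margin. Those of BAX and BAK1 sit below, and the points of BCL2, BCL2L1, BID, PMAIP1 and BAD mix.

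BCL2L11 encodes BIM, a BH3-only protein that binds every anti-apoptotic member and can activate BAX and BAK. Its locus was measured at 2486, 2689 and 2488 normalized reads in DMSO and at 5771, 5687 and 5683 in THZ531. The groups are far apart, and the THZ531 libraries are close to each other (coefficient of variation 0.871%, against 4.56% in DMSO). BCL2L11 was 2.24-fold higher upon treatment (log2 fold change 1.16, SE 0.05, 95% confidence interval from 1.07 to 1.26; limma adjusted p = 4.4e-12). Of all loci tested, 93.5% had a lower log2 fold change. These values rest on 2898 to 5003 reads per library before normalization.

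BIK encodes a BH3-only protein found mainly at the endoplasmic reticulum. Its locus gave 560, 515 and 464 normalized reads in DMSO and 899, 958 and 1011 in THZ531. Every treated library exceeded every control library. The increase was 1.87-fold (log2 fold change 0.90, SE 0.09, 95% confidence interval from 0.72 to 1.09; limma adjusted p = 1.5e-07), and 90.4% of the loci tested had a lower log2 fold change.

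The other BH3-only genes did not pass the test with the deposited scaling, and they reached the fold threshold under no scaling. BID encodes a protein that caspase-8 cleaves to link death receptors to mitochondria. It was measured at 7248, 7213 and 6849 normalized reads in DMSO and at 7017, 6293 and 7071 in THZ531 (log2 fold change -0.07, 95% confidence interval from -0.17 to 0.03; limma adjusted p = 0.23). PMAIP1 encodes NOXA, a selective partner of MCL1. Its values were 817, 932 and 1050 in DMSO and 885, 924 and 990 in THZ531 (log2 fold change 0.01, 95% confidence interval from -0.18 to 0.19; limma adjusted p = 0.95). All 3 THZ531 values of PMAIP1 fall within the range of its DMSO values. BAD, whose product binds BCL2 and BCL-XL and is kept inactive by phosphorylation, was measured at 929, 814 and 938 in DMSO and at 883, 804 and 918 in THZ531 (log2 fold change -0.04, 95% confidence interval from -0.21 to 0.13; limma adjusted p = 0.67). For these 3 genes the intervals leave out a fold change of 1.5 in either direction on the deposited scale.

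MCL1 was the most abundant member, with a mean above that of 97.8% of the loci tested. It was measured at 21078, 21717 and 22320 normalized reads in DMSO and at 23983, 23465 and 23377 in THZ531. The groups did not overlap, but the difference was small: 1.09-fold higher with the deposited scaling (log2 fold change 0.12, SE 0.03, 95% confidence interval from 0.05 to 0.19; limma adjusted p = 0.0044), with the opposite sign when libraries were scaled to the same total (-0.12) or to RPL34 (-0.37). MCL1 was thus not called in either direction. Its interval lies well under the threshold of 1.5 with the deposited scaling. With RPL34 the interval ran from -0.55 to -0.19 (limma adjusted p = 8.2e-04), close to a 1.5-fold decrease at its lower end.

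BCL2L1 encodes BCL-XL, which like MCL1 restrains BAX and BAK. Its values were 3902, 3668 and 3740 normalized reads in DMSO and 3906, 3711 and 3738 in THZ531. The groups have nearly the same range (log2 fold change 0.01, 95% confidence interval from -0.09 to 0.10; limma adjusted p = 0.91). BCL2, the founding member of the family, was close to the limit of what the depth can show, at 35.7, 32.5 and 31.9 in DMSO and 25.2, 44.3 and 43.2 in THZ531, from 20 to 45 reads per library. Its THZ531 values lie on both sides of the DMSO values. The interval from -0.58 to 0.83 around a log2 fold change of 0.13 (limma adjusted p = 0.75) still includes a 1.5-fold increase, so a change of that size in BCL2 was not detectable at this depth.

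Both effectors, the proteins that form the pore, had lower values in every treated library. BAX was measured at 1430, 1409 and 1396 normalized reads in DMSO and at 1125, 1234 and 1173 in THZ531 (log2 fold change -0.26, SE 0.06, 95% confidence interval from -0.39 to -0.13; limma adjusted p = 0.0011). BAK1 was measured at 1321, 1243 and 1123 in DMSO and at 1021, 920 and 981 in THZ531 (log2 fold change -0.33, SE 0.07, 95% confidence interval from -0.49 to -0.18; limma adjusted p = 7.8e-04). These differences are larger than the spread between replicates and smaller than the fold change threshold, so neither gene was called. BAK1 has pseudogene copies on chromosomes 11 and 20 (BAK1P2 and BAK1P1), with which its reads may be shared.

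How the libraries are scaled moves all members together. Every scaling used here is relative to other RNA of the same library, and no added reference RNA is described. A change in RNA per cell therefore cannot be read from these values. The deposited values of the THZ531 libraries sum to more than those of the DMSO libraries, and scaling to the same total shifts THZ531 against DMSO by -0.24 on the log2 scale. Scaling to RPL34, the ribosomal protein transcript used as a reference for qPCR in the study, shifts it by -0.49, since RPL34 was itself measured at 14248, 12843 and 11905 normalized reads in DMSO and 18164, 18337 and 18239 in THZ531. BCL2L11 stayed called under both (log2 fold change 0.92 and 0.67). BIK stayed called with the same total (0.66), and under RPL34 it was 0.41, below the threshold. With RPL34, BAX (-0.76) and BAK1 (-0.83) passed as decreased.

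With the same total, 2 members increased and 0 decreased, beside 9.38% and 32% of all loci. With RPL34, 1 increased and 2 decreased, beside 6.14% and 42.8% of all loci. The sign of MCL1, BCL2, BCL2L1 and PMAIP1 turned negative under both. BCL2L1, BID, PMAIP1 and BAD had limma adjusted p-values of 2.5e-04, 3.5e-05, 0.024 and 0.0054 with the same total. They stayed short of the fold threshold. The median of all loci was -0.25 under the former scaling and -0.50 under the latter, and that of the members was -0.24 and -0.49.

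**Figure D2:**
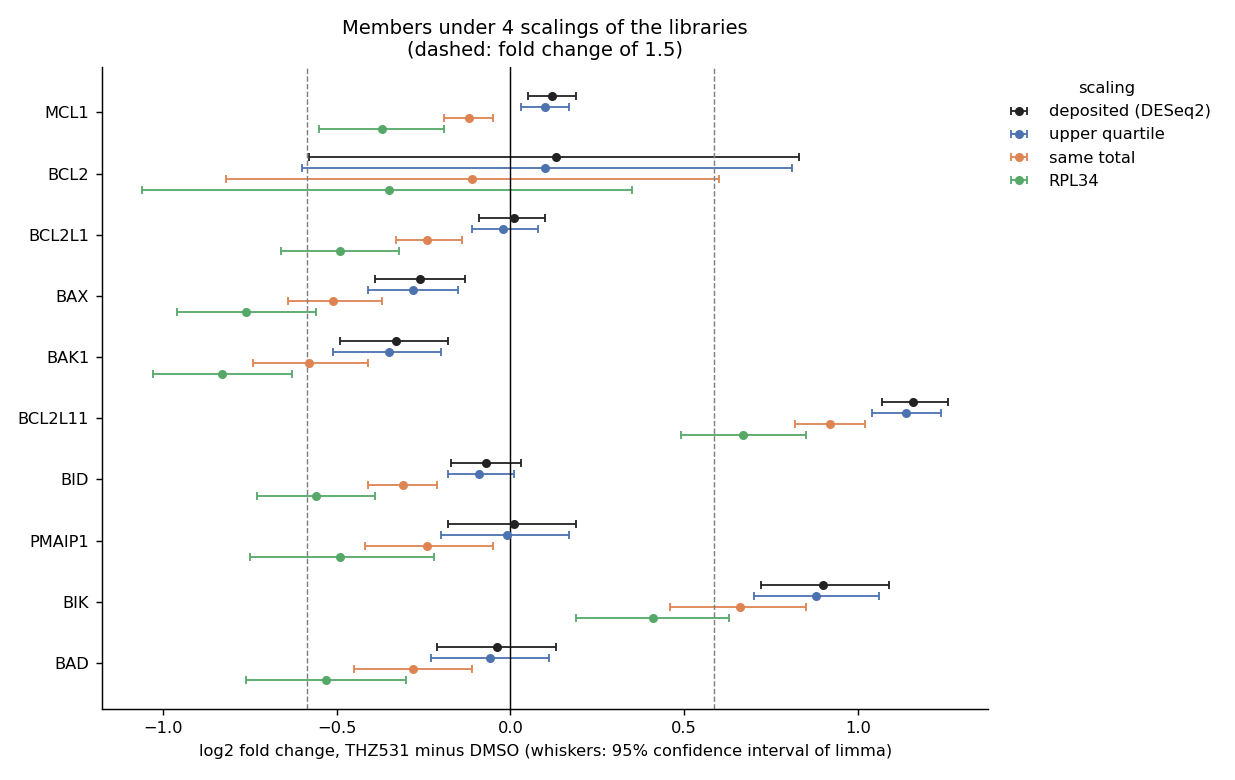
Log2 fold change of each member (horizontal axis, THZ531 minus DMSO) with its 95% confidence interval from limma, for the deposited scaling and 3 others (colors); dashed lines mark a fold change of 1.5. BCL2L11 is above the upper line in every scaling (1.16, 1.14, 0.92 and 0.67), whereas MCL1 moves from 0.12 to -0.37.

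The ratio of a pair of transcripts within a library does not depend on scaling. In all, 6 pairs were compared by exact two-sided permutation over the 6 libraries, where 0.1 is the smallest p that 3 libraries against 3 allow, so no pair could pass 0.05. The log2 ratio of BCL2L11 to MCL1, a BH3-only gene over the anti-apoptotic gene with the highest level, was -3.08, -3.01 and -3.16 in DMSO and -2.05, -2.04 and -2.04 in THZ531. The ratio was 2.06-fold higher in THZ531, with no overlap (exact permutation p = 0.1, 0.2 adjusted over the 6 pairs). BCL2L11 to BCL2L1 was -0.65, -0.45 and -0.59 in DMSO and 0.56, 0.62 and 0.60 in THZ531. This ratio was 2.23-fold higher in THZ531, again with no overlap (exact permutation p = 0.1, adjusted 0.2). These are ratios of reads, not corrected for transcript length, and their sign says nothing of which transcript was the more abundant.

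MCL1 to BCL2L1 was 2.43, 2.57 and 2.58 in DMSO and 2.62, 2.66 and 2.64 in THZ531, a difference of 0.12 without overlap (exact permutation p = 0.1, adjusted 0.2). The remaining pairs overlapped. PMAIP1 to MCL1 went from a mean of -4.55 ± 0.14 (SD, n = 3) to -4.66 ± 0.10 (SD, n = 3; exact permutation p = 0.4, adjusted 0.6). BAX to BAK1 was 0.20 ± 0.10 and 0.27 ± 0.14 (SD, n = 3 each; exact permutation p = 0.6, adjusted 0.72). BCL2 to BCL2L1 was -6.78 ± 0.05 and -6.66 ± 0.49 (SD, n = 3 each; exact permutation p = 0.9, adjusted 0.9).

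**Figure D3:**
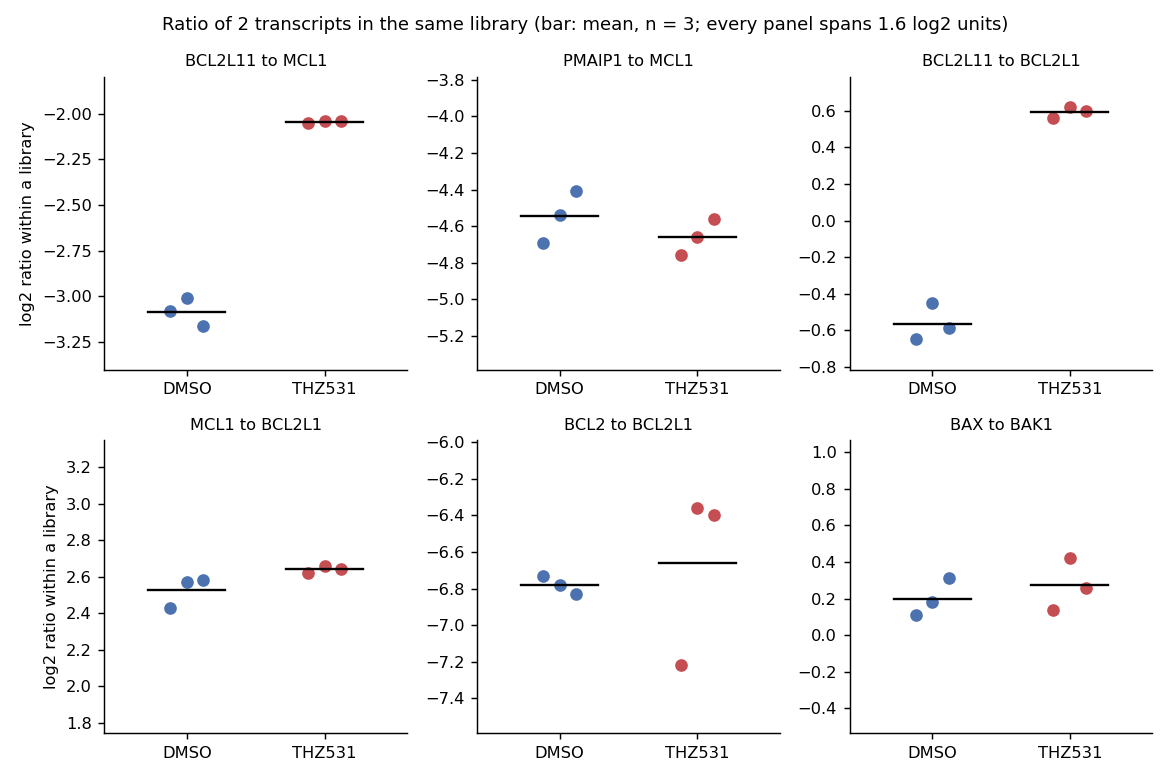
Log2 ratio of a pair of members within each library (vertical axis; every panel spans the same number of log2 units), with the mean of 3 libraries as a bar. BCL2L11 to MCL1 moves from a mean of -3.09 to -2.05 and BCL2L11 to BCL2L1 from -0.56 to 0.59, while the points of BAX to BAK1 overlap.

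Levels of different members were compared per kilobase of the MANE Select transcript, as normalized reads per kb, which assumes that this isoform carries the reads. In DMSO, MCL1 had the highest level (5495 ± 157, SD, n = 3), followed by BID (3263 ± 101), BAX (1776 ± 21.2), BCL2L1 (1465 ± 46.6) and BAD (962 ± 74.6), with no overlap between neighbours in this order. BAK1 (566 ± 45.9), BIK (539 ± 50.6), BCL2L11 (501 ± 22.9) and PMAIP1 (491 ± 61.4) followed, and each overlapped with the next. BCL2 was lowest, at 4.85 ± 0.299 reads per kb. In THZ531, BCL2L11 stood at 1121 ± 9.76, BIK at 1006 ± 59.0 and BAD at 935 ± 63.1, where the values of BIK and BAD overlapped, and MCL1 was still first (5977 ± 82.9).

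The 10 genes differ widely in structure. The MCL1 transcript has 3 exons over 5053 bases of genome, with 752 bases in its longest intron. BCL2L11 spans 47531 bases with an intron of 25904, BIK spans 18963 with an intron of 13212, and BCL2 spans 196424 with an intron of 189322. BCL2L11 and BIK fall in the class of 10 to 50 kb, where 11.2% of 6478 named loci increased and 24.7% decreased, with a median log2 fold change of -0.05. BID and BAD, which did not pass the test, are in the same class. MCL1, BAX, BAK1 and PMAIP1 are under 10 kb, where 17% of 3693 named loci increased and 20.7% decreased.

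The loci around the members bear on what their reads can show. Of 28 loci of the table that overlap a member or lie within 10 kb, 15 passed the minimum. ADAMTSL4-AS1 and LINC00528 did so through the THZ531 libraries alone, so they had to differ, and they are given as values without a test. Of the other 13, 4 increased and 3 decreased, beside 15.7% and 23.9% of all loci tested. Loci with no symbol were given a strand from the order of their identifiers, which was right for 98.9% of the loci of known strand with a prediction. The libraries were made with a stranded kit, but the strand setting of the counting is not given in the sources used here, so overlapping loci on opposite strands may share reads.

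A pair of weakly expressed loci flank MCL1, with higher values in THZ531. ADAMTSL4-AS1, at chr1:150560202-150574552 on the same strand, is separated by 1 base from the 3′ end of the MCL1 locus. It went from 1.59, 3.71 and 2.39 normalized reads in DMSO to 27.7, 34.1 and 14.8 in THZ531. An unnamed locus 898 bases upstream, at chr1:150580509-150583384 on the opposite strand, went from 6.35, 11.1 and 14.4 to 78.1, 35.2 and 52.3 (log2 fold change 2.27; limma adjusted p = 2.0e-04). Every treated library of the unnamed locus exceeds every control library. For ADAMTSL4-AS1 the minimum for expression fixed this in advance. The means of ADAMTSL4-AS1 and the unnamed locus in THZ531, 25.5 and 55.2, are small beside the 23608 reads of MCL1.

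A like locus lies 3 bases beyond the 3′ end of BAD, at chr11:64267675-64269825 on the same strand. It rose from 9.53, 13.0 and 18.4 to 102, 103 and 74.0 normalized reads (log2 fold change 2.71; limma adjusted p = 2.6e-06). GPR137, on the opposite strand, overlaps 14643 bases of BAD and was measured at 565 ± 42.5 in DMSO and 708 ± 45.5 in THZ531 (SD, n = 3 each; log2 fold change 0.33). The value of BAD is therefore uncertain. PLCB3, downstream of BAD, was at 7976 ± 289 and 9818 ± 288 (SD, n = 3 each; log2 fold change 0.30).

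BAX lies wholly inside a locus of the table named FTL, on the same strand, at chr19:48264137-48966880. FTL, the light chain of ferritin, rose from 11075, 11320 and 12175 normalized reads to 17392, 17669 and 17112 (log2 fold change 0.59), whereas BAX was lower in the same libraries. How reads in the shared span were assigned is not given in the sources used here. DHDH, upstream of BAX, rose from 27.7 ± 11.1 to 60.6 ± 9.09 (SD, n = 3 each), and GYS1, downstream on the other strand, was at 3548 ± 167 and 2416 ± 29.1 (log2 fold change -0.55).

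BID had the neighbour with the largest decrease among named loci near a member. BCL2L13, an atypical relative of the family that acts as a receptor for mitophagy, lies 3282 bases beyond the 3′ end of BID on the opposite strand. It fell from 7375, 7652 and 7732 normalized reads to 3155, 2980 and 2943 (log2 fold change -1.33; limma adjusted p = 6.5e-13). Between them, an unnamed locus at chr22:17732195-17735214, which overlaps 1077 bases of BID, fell from 196, 208 and 161 to 47.9, 42.1 and 34.1 (log2 fold change -2.17). LINC00528, upstream of BID, was at 0, 1.86 and 3.19 in DMSO and 15.1, 47.7 and 25.0 in THZ531.

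MCAT, a mitochondrial fatty acid synthesis gene 2493 bases beyond the 3′ end of BIK on the opposite strand, fell from 1328, 1276 and 1221 to 741, 679 and 791 normalized reads (log2 fold change -0.79; limma adjusted p = 9.4e-08). ACOXL, which ends 2365 bases upstream of BCL2L11 on the same strand, was at 108 ± 8.28 and 74.1 ± 6.18 (SD, n = 3 each; log2 fold change -0.54). The expressed neighbours of the 2 members that rose thus had lower values in THZ531. ABALON, antisense within BCL2L1, was at 57.2, 46.4 and 43.1 in DMSO and 76.8, 38.7 and 94.4 in THZ531, with overlapping groups. KDSR, upstream of BCL2, was at 636 ± 45.6 and 578 ± 35.0 (SD, n = 3 each; log2 fold change -0.14).

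**Figure D4:**
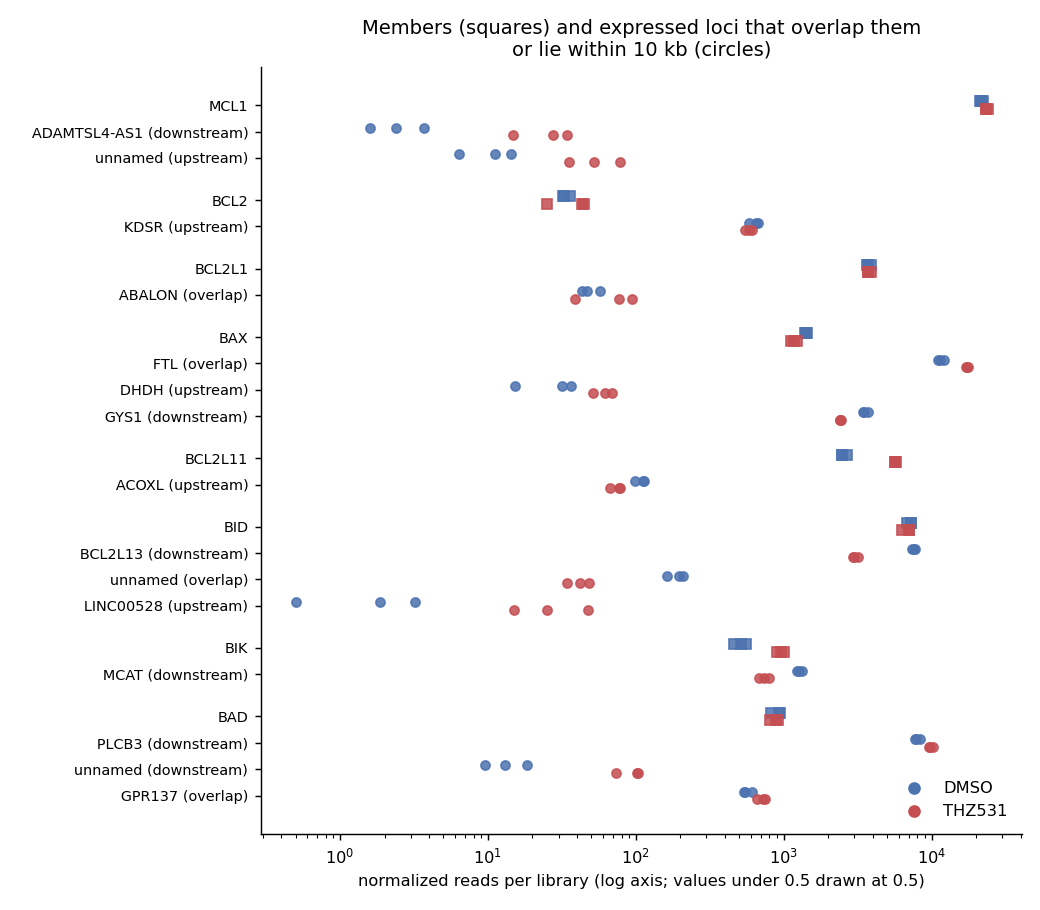
Normalized reads per library (horizontal log axis) of 8 members (squares) and the 15 expressed loci that overlap them or lie within 10 kb (circles), in DMSO (blue) and THZ531 (red). ADAMTSL4-AS1 and the unnamed loci by MCL1 and BAD move right with treatment while BCL2L13 and MCAT move left. ADAMTSL4-AS1 and LINC00528 passed the minimum through THZ531 alone.

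The genes whose pattern over the 6 libraries was most like that of a member were sought among 11839 named genes with a mean of at least 100. For MCL1 they were MDM2 (Pearson r = 0.9983), TUFM (0.998) and RAB1A (0.9971). For BCL2L11 they were TNRC6B (0.9998), MARCKS (0.9998) and INHBB (0.9997). These correlations over 6 libraries in 2 groups mostly restate the difference between treatments and are given as a description. TNRC6B, a scaffold of microRNA silencing, rose from 909, 1017 and 920 to 3598, 3429 and 3389 normalized reads. MDM2, the ubiquitin ligase of p53, was at 4551, 4970 and 5302 in DMSO and 6719, 6331 and 6247 in THZ531.

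Beyond the 10 members, 16 other genes were listed, from the family or from the BNIP genes grouped with it here. Of these, 13 were tested, 1 increased and 4 decreased (15.7% and 23.9% over all loci tested), with a median log2 fold change of -0.12. BBC3, which encodes the BH3-only protein PUMA, rose from 145, 167 and 132 normalized reads to 292, 297 and 324 (log2 fold change 1.04, 95% confidence interval from 0.74 to 1.34; limma adjusted p = 6.4e-06). BCL2L2, which encodes the anti-apoptotic BCL-W, fell from 2001, 2214 and 2072 to 741, 781 and 766 (log2 fold change -1.46, 95% confidence interval from -1.59 to -1.32; limma adjusted p = 1.2e-11). BCL2L2 shares exons with a read-through transcript that was not analysed here. BCL2L13, described beside BID, fell as well. HRK (82.6, 80.7 and 81.4 against 50.4, 45.5 and 50.1), a BH3-only gene, and BNIPL (37.3, 30.6 and 20.8 against 16.4, 4.55 and 12.5; log2 fold change -1.45) also fell, and are named after their values were seen. With RPL34 scaling BBC3 was no longer called, and the split was 0 increased and 6 decreased, beside 6.14% and 42.8% of all loci.

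In all, 18 genes of cytochrome c release, the apoptosome and the caspases were tested, and not all of them act after the pore. Of these, 0 increased and 5 decreased (median log2 fold change -0.02), beside 15.7% and 23.9% of all loci tested. DFFB, the nuclease that cuts DNA in apoptosis, fell from 406, 470 and 395 normalized reads to 171, 172 and 211 (log2 fold change -1.20; limma adjusted p = 5.2e-07). CASP8, the initiator caspase that cleaves BID, fell from 612, 643 and 714 to 292, 279 and 357 (log2 fold change -1.09; limma adjusted p = 2.6e-07). DFFA and HTRA2, named after their values were seen, fell with log2 fold changes of -1.08 and -0.90. Of the genes that did not pass, CASP9 was at 0.39, APAF1 at -0.11 and CYCS at 0.07 on the same scale, also named after their values were seen. With RPL34 scaling 9 of the 18 decreased, beside 42.8% of all loci.

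The list of inhibitors of apoptosis proteins, which also holds the antagonist XAF1, had 6 genes tested. Of these, 0 increased and 2 decreased, beside 15.7% and 23.9% of all loci tested. Only 1 of the 2, XIAP, reached the minimum in both groups. XIAP, which binds caspases directly, fell from 1510, 1511 and 1790 normalized reads to 704, 708 and 828 (log2 fold change -1.10; limma adjusted p = 8.1e-09). XAF1, a weakly expressed antagonist of XIAP, was at 14.3, 26.9 and 23.9 in DMSO and 0, 2.27 and 9.10 in THZ531. It passed the minimum through the DMSO libraries alone, so it had to differ, and it no longer passed without any 1 of them. BIRC5 (survivin) was at 15194, 14563 and 14343 against 14111, 14368 and 13827. Both are named after their values were seen.

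Among 12 death receptor genes tested, 2 increased and 4 decreased (median log2 fold change -0.15), beside 15.7% and 23.9% of all loci tested. FADD, the adaptor that recruits caspase-8, fell from 2133, 2136 and 2132 normalized reads to 440, 495 and 502 (log2 fold change -2.16; limma adjusted p = 6.5e-13). TNFRSF1A, the main TNF receptor, fell from 3384, 3718 and 3697 to 1399, 1398 and 1692 (log2 fold change -1.27; limma adjusted p = 2.0e-10). TNFRSF10D, a decoy receptor for TRAIL, rose from 318, 256 and 241 to 877, 818 and 842 (log2 fold change 1.64; limma adjusted p = 1.5e-09), and TNFRSF21 from 3975, 3919 and 3918 to 6906, 7202 and 7088 (0.84). TNFRSF10A and TRADD, named after their values were seen, also fell (log2 fold change -0.70 and -0.63). The groups of TRADD overlapped (537, 451 and 342 against 228, 266 and 368), and the count of decreases was 3 without DMSO replicate 1 or THZ531 replicate 1. With RPL34 scaling the split was 1 increased and 7 decreased, beside 6.14% and 42.8% of all loci.

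Of 15 tested genes that control how long MCL1 and BIM proteins last, 4 increased and 1 decreased (median log2 fold change 0.17), beside 15.7% and 23.9% of all loci tested. The split was 1 and 2 with the same total (9.38% and 32% of all loci) and 0 and 4 with RPL34 (6.14% and 42.8%). GSK3B, whose kinase marks MCL1 for degradation, rose from 2761, 2898 and 2847 normalized reads to 5428, 5195 and 5190 (log2 fold change 0.89; limma adjusted p = 4.8e-11). MAPK8, which encodes the kinase JNK1, rose from 901, 934 and 927 to 1651, 1505 and 1650 (log2 fold change 0.80; limma adjusted p = 1.4e-08). PPP2CA also rose (0.66), and TRIM17 fell from 82.6, 43.6 and 52.7 to 26.5, 23.9 and 35.3 normalized reads, both named after their values were seen. TRIM17 was no longer called without DMSO replicate 1, which left 0 decreased. The ubiquitin ligase HUWE1 and the deubiquitinase USP9X, which act on MCL1 protein in opposite directions, were at 0.17 and 0.36, did not pass and are named after their values were seen. Protein levels were not measured.

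**Figure D5:**
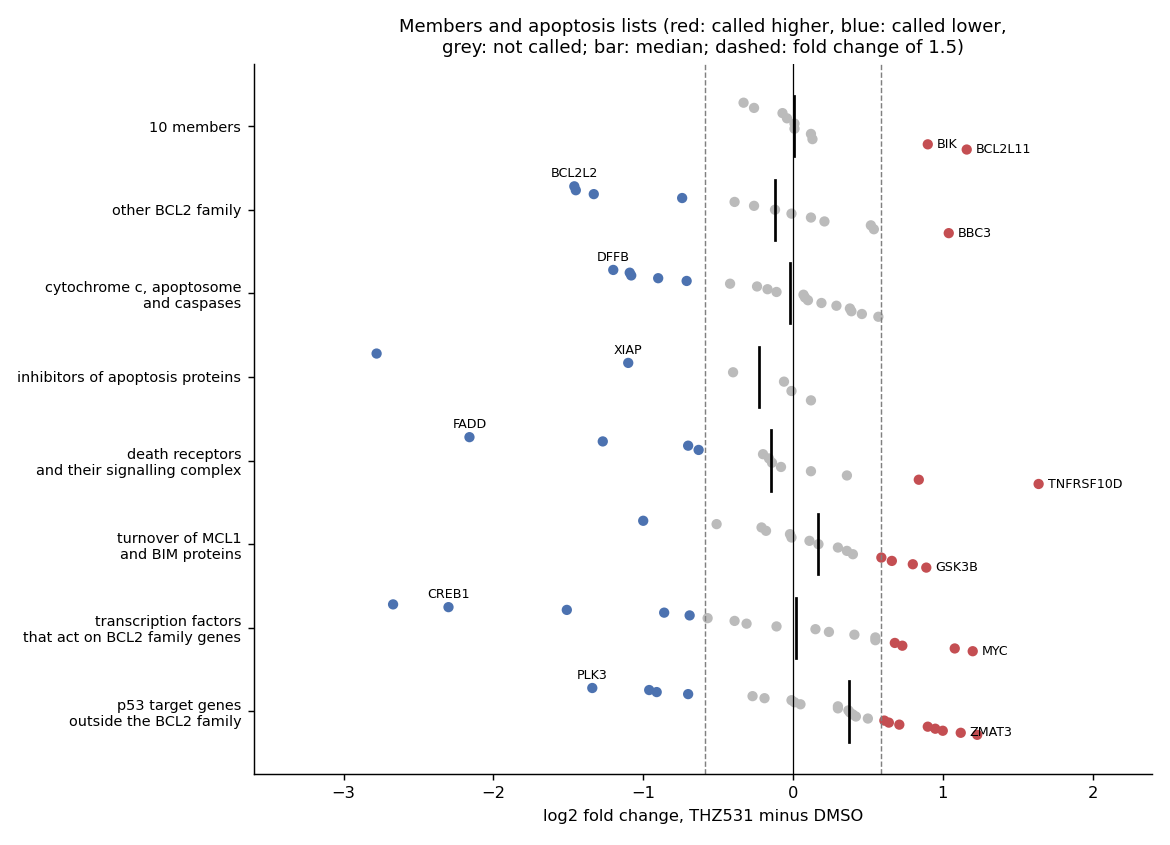
Log2 fold change (horizontal axis, THZ531 minus DMSO) of the 10 members and of the tested genes of 7 apoptosis lists (points; red called higher, blue called lower, grey not called), with the median as a bar and a fold change of 1.5 dashed. FADD (-2.16) and CREB1 (-2.30) lie far left and TNFRSF10D (1.64) far right. XAF1, the leftmost point in the list of inhibitors of apoptosis proteins, passed the minimum through DMSO alone.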

How the data were processed

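PolyA RNA of 6 OVCAR3 cultures was sequenced, 3 per group, and called biological repeats in the series text. The authors mapped reads to hg38 with STAR (2.7.5a per the labels), counted them with featureCounts on FAST DB v2021_3 genes, and deposited a signal per locus, the read count divided by a DESeq2 size factor. In each library 100% of the values above 0 came out within 0.1 of a whole read, which gave back the counts. Precision is set by 53054048 to 70986130 counted reads per library.

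The deposited values were tested with limma 3.58.1 (trended variance, R 4.3.3) on the log2(value + 1) scale, without covariates, over loci that reached 10 in 3 or more libraries, and called at a fold change of 1.5 and p of 0.05. Ratios of members used an exact permutation test (scipy 1.17.1). Gene structure and coding sequence came from GENCODE v44. The spans of the MANE Select transcripts lie within the deposited spans of the members but are not all equal to them. For BCL2L1 they are 31664458 to 31722868 and 31664453 to 31723963.

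The members and lists were chosen with earlier results of these data known. Genes named are the 10 members, up to 2 called genes in each direction per list (mean of at least 100, groups not overlapping) and BBC3, RPL34, CDK12, CDK13, expressed loci within 10 kb of a member, and the 3 genes most like MCL1 and BCL2L11. Genes outside this rule are marked where they are named. Alternatives were pseudocounts of 0.1 and 10, no minimum and a minimum of 50, 3 other scalings, a replicate block, limma without a trend, calls by adjusted p or at a 2-fold change, edgeR 4.0.16 and DESeq2 1.42.0 on the recovered counts, and leaving out each library. No pair of libraries agreed within sampling noise. Some genes counted in the lists are not reported here by name.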

Additional observations from a re-analysis of the deposited data

How the results depend on the processing

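BCL2L11 was called increased under every alternative run. BIK was higher in all of them, but its call was lost at a fold change of 2 and with RPL34 scaling, each leaving 1 member increased, and RPL34 added 2 decreased (BAX -0.76, BAK1 -0.83). Over all loci, 1353 increased and 2689 decreased at a fold change of 2, 1078 and 7524 with RPL34, and 1647 increased with the same total. On the recovered reads, BCL2L11 was 1.14 with edgeR and 1.16 with DESeq2, BIK 0.88 and 0.90, and both tools called the same 2 members.

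Members near 0 changed sign. MCL1 was -0.12 and -0.37, BCL2 -0.11 and -0.35, BCL2L1 -0.24 and -0.49, and PMAIP1 -0.24 and -0.49 with the same total and RPL34. BCL2L1 and PMAIP1 were -0.02 and -0.01 with the upper quartile and both -0.02 with edgeR. Leaving out each library in turn, the ranges were -0.02 to 0.03 for BCL2L1, -0.09 to 0.10 for PMAIP1, -0.01 to 0.38 for BCL2 and -0.11 to 0.01 for BAD, 2 members always increased and 0 decreased, and the log2 ratios of BCL2 to BCL2L1 and BAX to BAK1 ran from -0.032 to 0.40 and -0.004 to 0.138.

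Lists moved mostly with RPL34, under which 6.14% of all loci increased and 42.8% decreased. The list of other BCL2 family and BNIP genes then had 0 increased, caspases 9 decreased, and death receptors 1 increased and 7 decreased. Turnover of MCL1 and BIM had 0 and 4, transcription factors 2 and 9, and p53 targets 1 increased. With the same total (9.38% increased and 32% decreased over all loci), turnover had 1 increased and 2 decreased, transcription factors 2 increased and p53 targets 5 increased. Leaving out 1 library gave 0 to 1 increased for caspases, 1 to 2 decreased for inhibitors of apoptosis (the call of XAF1, set by the minimum), and 0 to 1 decreased for turnover. Over all loci, 2327 to 2743 then increased and 3775 to 4159 decreased. The causes were not tested.

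Same-numbered libraries did not deviate together (correlations 0.002, 0.019 and -0.039), so the numbers pair nothing. With the replicate block 2 members and 2745 loci increased, 0 members and 4173 loci decreased, and the difference in BCL2L11 to MCL1 was 1.04 ± 0.08 (SD of 3 pairs).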

Other observations

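Transcription factors known to act on BCL2 family genes changed in both directions, with 4 increased and 5 decreased of 18 tested (median log2 fold change 0.02), beside 15.7% and 23.9% of all loci tested, and with 2 and 9 under RPL34 scaling, beside 6.14% and 42.8%. MYC, which can induce BCL2L11, rose from 2058, 2084 and 2389 normalized reads to 5010, 4955 and 5050 (log2 fold change 1.20; limma adjusted p = 2.6e-11). MITF, an activator of BCL2 in melanocytes, rose from 108, 103 and 88.6 to 210, 250 and 179 (log2 fold change 1.08; limma adjusted p = 4.8e-05). CREB1 fell from 830, 747 and 824 to 131, 152 and 211 (log2 fold change -2.30; limma adjusted p = 9.4e-10), and DDIT3, the stress factor CHOP, from 392, 431 and 319 to 111, 155 and 133 (log2 fold change -1.51; limma adjusted p = 3.4e-07). FOXO3, a known activator of BCL2L11, was at 1574, 1581 and 1546 in DMSO and 2258, 2223 and 2401 in THZ531, a log2 fold change of 0.55 that did not pass the fold threshold. It was named after its values were seen.

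Of 24 p53 target genes tested outside the family, 8 increased and 4 decreased (median log2 fold change 0.38), beside 15.7% and 23.9% of all loci tested. With the same total 5 and 4 did (9.38% and 32% of all loci), and with RPL34 1 and 6 (6.14% and 42.8%). ZMAT3 rose from 343, 427 and 381 normalized reads to 800, 832 and 866 (log2 fold change 1.12; limma adjusted p = 2.8e-08), and PPM1D, a phosphatase that dampens p53, from 511, 448 and 535 to 1018, 939 and 1031 (1.00; limma adjusted p = 3.4e-08). PLK3 fell from 1156, 1180 and 1178 to 477, 450 and 457 (log2 fold change -1.34; limma adjusted p = 1.8e-10), and PHLDA3 from 2362, 2452 and 2408 to 1200, 1174 and 1331 (-0.96; limma adjusted p = 7.3e-10). Among p53 targets in the family itself, BBC3 rose, BAX was lower without passing the fold threshold, and PMAIP1 did not pass the test.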
